A study of Rattus norvegicus with 8 samples.

Results

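The axon-to-soma ratio of an RNA is its level in axons divided by its level in the cell body compartment, and its shift is that ratio with Pum2 knockdown minus the same ratio with a control hairpin, on the log2 scale. The shift was followed in the genes detected in the somatic compartment, those with 10 or more estimated counts in all 4 somatic libraries. There were 11800 such genes of 17379 in all, and 11792 of them passed the expression filter of the test. The remaining 8 had no test. The cells were dorsal root ganglion neurons taken from rats at embryonic day 15 and grown for 7 days in microfluidic chambers, in which axons pass into a compartment of their own. A lentivirus given on the day of plating carried either a short hairpin RNA directed at Pum2 (shPum2) or a control hairpin (shControl), so all 4 groups carry a lentiviral hairpin. Somatic shControl, somatic shPum2, axonal shControl and axonal shPum2 groups had 2 libraries each. Somatic RNA is labelled as coming from cell bodies and axons together. The kits differed, standard for somatic RNA and ultra-low input for axonal RNA, so kit cannot be told apart from compartment, whereas the shift sets ratios made with the same pair of kits against each other. No label says that the 2 libraries of a group came from separate cultures, so the p-values measure the spread between these libraries, which may be technical.

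Pum2 is a Pumilio protein, a class that binds short elements in the 3′ untranslated regions of mRNAs and mostly represses them. Sensory axons hold their own set of mRNAs, carried in granules along microtubules and translated locally during growth, so an RNA-binding protein can act on where an mRNA is found as well as on how much of it there is. The comparison asked which RNAs differ in their distribution between axon and cell body when Pum2 is reduced.

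Total counts were 16725876 to 25821766 in somatic and 11641947 to 16131611 in axonal libraries. Of the 11800 genes, 9157 to 10224 had at least 1 count in an axonal library. Pum2 itself had means of 162 ± 3.34 and 37.3 ± 1.16 CPM (counts scaled to the library total) in somatic shControl and somatic shPum2 libraries (SD, n = 2). Axonal Pum2 read 3.25 and 0.443 CPM under shControl against 1.46 and 7.07 CPM under shPum2, so its axonal groups overlapped and at these low levels no knockdown was seen in axons. Its shift of 3.48 (SE 1.78) held a somatic part of -2.13. All 25 sensory neuron markers in the files had counts in every somatic library and 23 in each axonal library. They summed to 31750 to 36980 CPM in somatic libraries, and in axons to 20560 and 15880 CPM under shControl against 31640 and 20670 CPM under shPum2. Of 16 dendritic RNAs, 10 to 12 had counts in each axonal library, and they summed to 40.2 to 164 CPM there against 1235 to 1378 CPM in somatic libraries. Axonal RNA also held macrophage and blood markers, 15 or 16 of 18 per library. These summed to 3437 and 3369 CPM under shControl, 5518 and 376 CPM under shPum2, and 80.9 to 324 CPM in somatic libraries. Axonal Schwann and satellite glia markers, 12 to 14 of 19, summed to 4906 and 696 CPM under shControl against 3978 and 195 CPM under shPum2. Fibroblast markers, 15 to 17 of 17 in axonal libraries, summed to 323 to 1288 CPM there. Somatic fibroblast marker sums were 5024 and 2932 CPM under shControl against 11350 and 2896 CPM under shPum2. In bulk RNA, fewer cells of a type and less RNA per cell cannot be told apart.

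No gene had a shift past the threshold. Of the 12337 genes tested, 0 (0%) had an adjusted p below 0.05 (edgeR quasi-likelihood, Benjamini-Hochberg), and the smallest adjusted p was 0.329. DESeq2 called 609 genes on the same counts, and edgeR called 713 when replicate 1 of axonal shControl was left out. Among the 11792 somatically detected genes, 913 (7.74%) had an unadjusted p below 0.05, against 964 (7.81%) of all tested. Of the 913, 520 had a higher ratio in shPum2 (4.41%, against 4.33% of all tested) and 393 a lower one (3.33%, against 3.49%). Shifts were nearly balanced: 5926 of 11792 were positive (50.3%), with a median of 0.01. Over 8285 genes tested in both compartments, the median absolute log2 difference between the hairpins was 0.89 in axonal and 0.08 in somatic libraries.

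For each axonal library the log2 level was set against the mean of the somatic libraries of the same hairpin, which gave 2 ratios per hairpin. Both shPum2 ratios lay above both shControl ratios for 1948 genes (16.5%) and below them for 2011 (17.1%). Over all genes tested these shares were 16.6% and 17.9%. Across genes, which are not independent replicates, log2 levels correlated at 0.680 between the axonal shControl libraries and at 0.687 between the axonal shPum2 libraries. Between axonal libraries of different hairpins the correlation was 0.674 to 0.723, so libraries of a hairpin were no more alike than libraries of different hairpins.

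**Figure D1:**
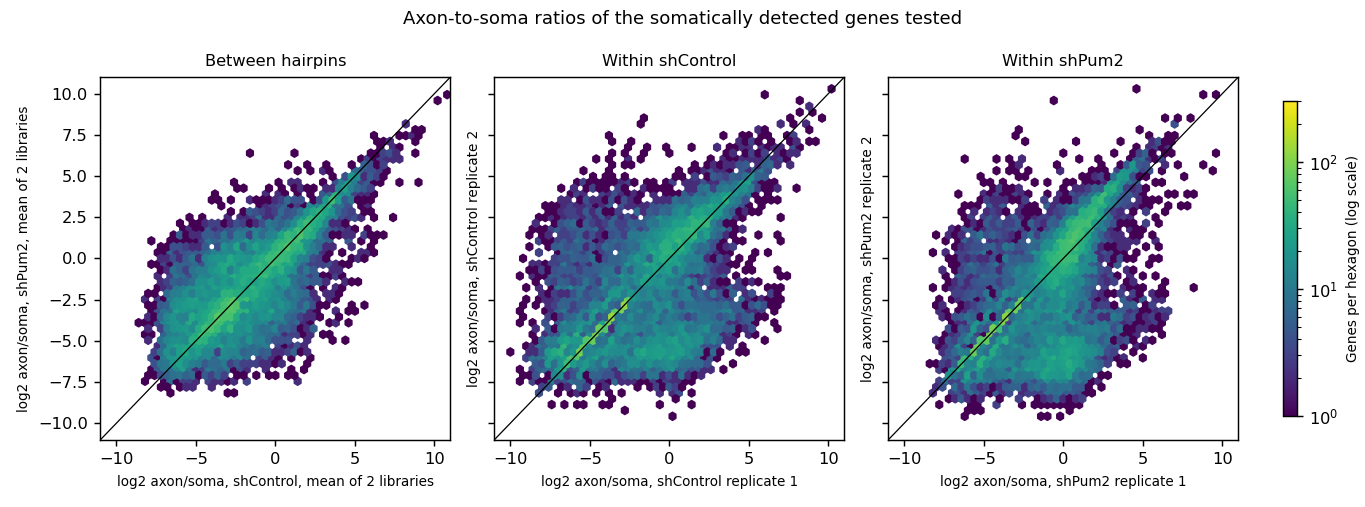
log2 axon-to-soma ratios of 11792 genes, as densities of genes (colour, log scale): shPum2 against shControl as means of 2 libraries (left), replicate 2 against replicate 1 within shControl (middle) and within shPum2 (right). The diagonal marks equal ratios. In both replicate panels genes lie off it, more of them present in replicate 1 and near the floor in replicate 2 than the reverse. Within shControl, 1008 genes were at 10 CPM or more in replicate 1 and below 1 CPM in replicate 2, and 412 the reverse. Within shPum2 these numbers were 1648 and 193.

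Presence and absence varied in the same way. Genes at 10 CPM or more in 1 axonal library and below 1 CPM in another numbered 1420 between the 2 shControl libraries and 1841 between the 2 shPum2 libraries. Between libraries of different hairpins they numbered 1189 to 1847. Differences shared by both libraries of a hairpin had to meet these limits in every axonal library. They are therefore contained in each count between different hairpins and could not outnumber it. Their smaller number does not weigh differences between hairpins against those between replicates. There were 67 genes at 10 CPM or more in both axonal shPum2 and below 1 CPM in both axonal shControl libraries (0.568%, against 0.559% of all genes tested), and 28 with the reverse pattern (0.237%, against 0.235%).

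**Figure D2:**
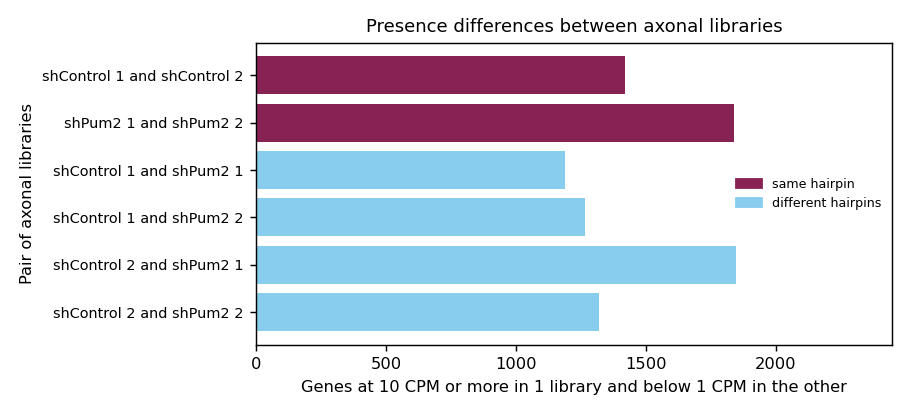
Number of genes at 10 CPM or more in 1 axonal library and below 1 CPM in the other, for each of the 6 pairs of axonal libraries (bars). Both pairs with the same hairpin (1420 and 1841 genes) lie within the range of the pairs with different hairpins (1189 to 1847).

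From 1 CPM upward, shifts were smaller where the RNA was more abundant in axons. Among 150 genes with a mean of 1000 CPM or more over the 4 axonal libraries, the median absolute shift was 0.21, and 0 genes had an unadjusted p below 0.05 (edgeR quasi-likelihood). Among 979 genes at 100 to 1000 CPM it was 0.35, and 4 had such a p. Among 4255 genes at 10 to 100 CPM it was 0.96, and 886 of them (20.8%) had a fitted shift of at least 4-fold. The low-abundance class of 1 to 10 CPM held 3955 genes with a median absolute shift of 2.20, and 2096 of them (53.0%) reached 4-fold. Of them, 495 had an unadjusted p below 0.05 (12.5%, against 7.81% of all genes tested). The median standard error of the ratio difference, taken from the axonal replicates, was 2.86 at 1 to 10 CPM, 1.58 at 10 to 100 CPM, 0.67 at 100 to 1000 CPM and 0.62 above. In each class it was larger than the median absolute difference between the hairpins, which does not show that the hairpins were alike. The standard error includes any offset that the genes of a library share after scaling, so it is not the spread of single genes alone. In the class below 1 CPM, with 2453 genes, the median absolute shift was lower again, 1.51. Ratios there rest on few counts, and 622 genes had no count in any axonal library.

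**Figure D3:**
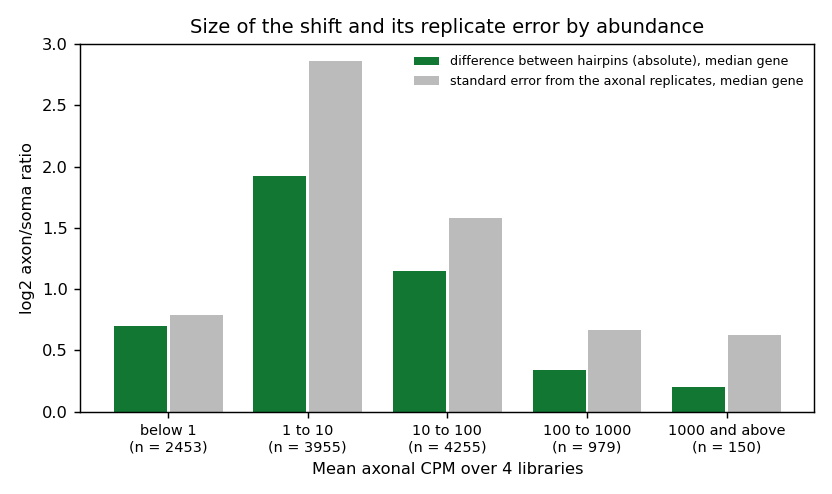
Median absolute difference in log2 axon-to-soma ratio between the hairpins (green bars) and the median standard error of that difference from the axonal replicates (grey bars), for genes grouped by mean axonal CPM. In each group the grey bar is the taller, 2.86 against 1.93 at 1 to 10 CPM and 0.62 against 0.20 at 1000 CPM and above.

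The RNAs that dominate axons had small shifts. Ftl1, the ferritin light chain of iron storage, read 73384 and 55356 CPM in axons under shControl and 57808 and 58369 CPM under shPum2, a shift of -0.30 (SE 0.43). For Fth1, the ferritin heavy chain, axonal levels were 42500 and 36101 CPM under shControl and 32757 and 33589 CPM under shPum2 (shift -0.47, SE 0.43). Those of Tmsb4x, an actin-sequestering thymosin, were 32911 and 23507 CPM and 25243 and 33436 CPM in the same order (shift 0.05, SE 0.55). Over total counts, axonal Fth1 was lower in both shPum2 libraries than in either shControl library. Its somatic means were 946 CPM under shControl and 1096 CPM under shPum2. After TMM scaling, the axon-to-soma ratios of the hairpins overlapped for Ftl1, Fth1 and Tmsb4x, which for Fth1 depends on the scaling. They also overlapped for the thymosin Tmsb10 (shift -0.10), the autophagy-related Tp53inp2 (-0.01, and positive with 2 other scalings), the ribosomal protein gene Rps2 (-0.25) and the RNA-binding protein genes Ybx1 (-0.11) and Stau2 (-0.11). The ribosomal RNA Rn28s had the largest shift of the 10 most abundant RNAs, -1.23, and replicate 2 of axonal shControl was the highest library, at 19821 and 53959 CPM under shControl against 16307 and 22030 CPM under shPum2. Nefm, a neurofilament subunit, had log2 ratios that did not overlap after TMM scaling, 2.33 and 1.59 under shControl and 2.53 and 2.46 under shPum2. Its axonal levels over total counts did overlap, at 16335 and 10288 CPM under shControl and 23707 and 14251 CPM under shPum2. The shift was 0.48 (SE 0.43, unadjusted p = 0.303, edgeR quasi-likelihood).

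The 12 genes named for a higher ratio had the smallest p among those with non-overlapping ratios and a minimum mean level, so their lack of overlap follows from the choice. Their adjusted p was 0.329 throughout (edgeR quasi-likelihood, Benjamini-Hochberg). All were well expressed in cell bodies and scarce in axonal shControl libraries. Several act on the cytoskeleton. Agtpbp1, which removes glutamates from tubulin tails, read 1.28 and 1.85 CPM in axons under shControl and 51.1 and 40.0 CPM under shPum2. Its somatic means were 419 ± 1.04 and 411 ± 39.2 CPM (SD, n = 2), and its shift was 4.83 (SE 0.61). For Ttl, the ligase that restores tyrosine to detyrosinated tubulin, axonal levels were 0.513 and 0.665 CPM under shControl and 13.8 and 9.48 CPM under shPum2, and somatic means were 184 and 178 CPM (shift 4.26, SE 0.77). Both enzymes were thus measured well above 100 CPM in cell bodies with either hairpin. Map1s, a microtubule-associated protein, read 0.684 and 0.739 CPM under shControl and 60.0 and 20.2 CPM under shPum2 in axons, a shift of 5.76. Kalrn, a signalling protein that acts on the actin cytoskeleton, had 0.257 and 0.443 CPM and 21.0 and 31.0 CPM in that order (shift 6.27). Axonal shControl libraries held under 2 CPM of each of these 4 RNAs.

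Another set of higher ratios came from membrane and trafficking genes. L1cam, the founding member of an adhesion family that guides and bundles axons, had the smallest standard error of the 24 genes named for their shift. Its axonal levels were 4.36 and 4.73 CPM under shControl and 65.5 and 45.7 CPM under shPum2, and its somatic means 935 ± 41.6 and 935 ± 77.7 CPM (SD, n = 2). The shift was 3.53 (SE 0.46, unadjusted p = 0.00016, edgeR quasi-likelihood). Lrp11, a membrane protein related to lipoprotein receptors, had the smallest unadjusted p of all, 0.000119 (edgeR quasi-likelihood), with 0.684 and 1.03 CPM in axons under shControl, 53.3 and 27.2 CPM under shPum2 and a shift of 5.49 (SE 0.68). For Vps26b, a subunit of the retromer that recycles cargo from endosomes, the axonal values were 0.342 and 1.11 CPM and 42.9 and 23.4 CPM in that order (shift 5.47). The remaining genes with a higher ratio have roles in mitochondria, metabolism, signalling and transcription. Opa1, the dynamin-like protein that fuses inner mitochondrial membranes, had 0.770 and 0.517 CPM in axons under shControl and 33.9 and 29.0 CPM under shPum2, with somatic means of 126 and 122 CPM (shift 5.60, SE 0.88). Acss2, a cytosolic acetyl-CoA synthetase, had a shift of 4.66, and Mapk6, an atypical MAP kinase, one of 4.46. Usf1, a transcription factor, read 0.257 and 0.591 CPM in axons under shControl and 58.2 and 51.6 CPM under shPum2 (shift 7.05, SE 0.94). Ldb2, a partner of LIM-domain factors, had 0.171 and 0.591 CPM and 39.9 and 38.2 CPM in that order (shift 6.75).

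**Figure D4:**
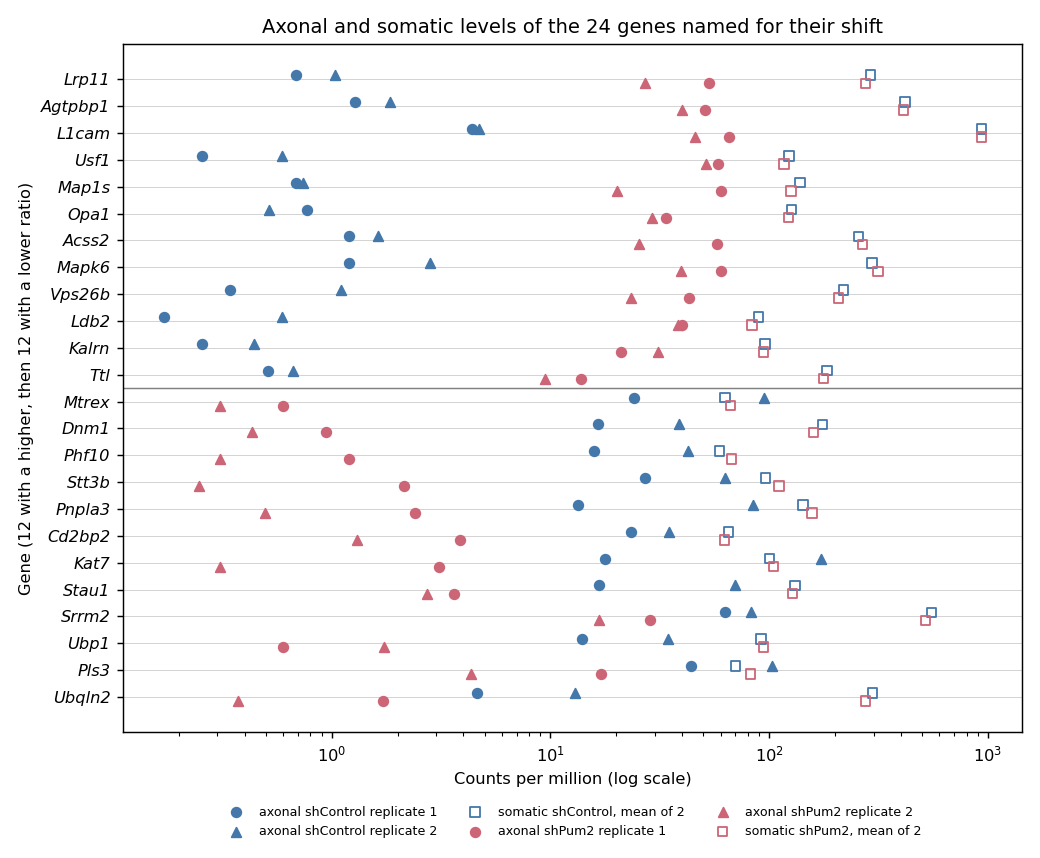
CPM (log scale) of the 24 genes named for their shift: 4 axonal libraries (filled symbols) and the somatic mean of each hairpin (open squares). Axonal shPum2 points lie right of axonal shControl points in the upper 12 genes and left of them in the lower 12, while the 2 somatic squares of a gene lie close together, as for L1cam at 935 CPM in both.

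The 12 genes named for a lower ratio with shPum2 included several of RNA metabolism and chromatin. Their adjusted p lay between 0.329 and 0.551 (edgeR quasi-likelihood, Benjamini-Hochberg), and lack of overlap again follows from the choice. Mtrex, the helicase that feeds RNA to the nuclear exosome, read 24.2 and 94.5 CPM in axons under shControl and 0.601 and 0.310 CPM under shPum2, with somatic means of 62.7 and 66.5 CPM (shift -7.20, SE 1.20). For Stau1, a double-stranded RNA-binding protein of transport granules, axonal levels were 16.6 and 69.6 CPM under shControl and 3.61 and 2.73 CPM under shPum2 (shift -3.77, SE 1.08). Srrm2, a scaffold of nuclear speckles, was the most abundant of the 12 in axonal shPum2 libraries, with 28.6 and 16.7 CPM there and 62.6 and 82.4 CPM under shControl (shift -1.68, SE 0.50). Unlike Mtrex it stayed well above 1 CPM in each axonal library. Cd2bp2, a splicing-associated protein, had a shift of -3.61, Phf10, a chromatin remodelling subunit, one of -5.64, and Kat7, a histone acetyltransferase, one of -6.15. Kat7 shows the spread behind such values: its axonal levels were 17.7 and 173 CPM under shControl and 3.09 and 0.310 CPM under shPum2. Dnm1, the neuronal dynamin that cuts endocytic vesicles free, read 16.4 and 38.8 CPM in axons under shControl and 0.945 and 0.434 CPM under shPum2, with somatic means of 175 and 159.8 CPM (shift -5.31, SE 0.91). The other shifts were -5.72 for Stt3b, a catalytic subunit of N-glycosylation, -5.44 for the lipase gene Pnpla3, -4.27 for the transcription factor gene Ubp1, -3.22 for the actin-bundling Pls3 and -3.19 for the ubiquilin gene Ubqln2.

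Across the 24 genes the somatic log2 difference between the hairpins was at most 0.22 in size, so the shifts lay in axonal RNA. The test shared 1 spread per gene between compartments, although the coefficient of variation between replicates was 125% in axonal and 23.5% in somatic libraries. With a spread for each compartment (limma voom), 20 of the 24 had an unadjusted p below 0.05, from 0.00145 to 0.212 over the 24, and the smallest adjusted p over all genes was 0.509. In the authors' deposited table of the axonal comparison, 15 of the 24 had an adjusted p below 0.05, among them Usf1 at 0.00119 and Dnm1 at 0.0163, but not L1cam at 0.16, and Mtrex had no match by symbol. Since the 24 were chosen on the same counts, these numbers are no independent support.

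Gene groups were described by the number of positive shifts and the median, beside a median of -0.01 over all 12337 genes tested. No member of any list passed the threshold. The median of all genes moved between -0.51 and 0.31 when single libraries were left out, so the range of each list's median over the 8 omissions is given beside it. Shifts of genes with few counts in a hairpin depend on the prior count of the fit. Microtubule-associated proteins and stathmins had 21 of 28 positive shifts, a median of 0.72 and a range of 0.37 to 1.04. Camsap3, which caps microtubule minus ends, read 0.257 and 0.0739 CPM in axons under shControl and 30.6 and 8.31 CPM under shPum2. For Clasp2, a plus-end stabiliser, the values were 8.30 and 9.46 CPM and 95.8 and 15.7 CPM in that order. Tubulin modifying enzymes had 8 of 10 positive shifts (median 0.88, range 0.19 to 1.15), with Agtpbp1 and Ttl as given above. Tpgs2, a subunit of the tubulin polyglutamylase, was more abundant in axons than both, with 153 and 143 CPM under shControl and 267 and 456 CPM under shPum2 (shift 1.38, SE 0.71). Tubulin genes had 11 of 14 positive shifts (median 0.35, range 0.13 to 0.52), and the alpha-tubulin Tuba1a had axonal levels of 9484 and 9630.5 CPM under shControl and 13131 and 15174 CPM under shPum2. For these 3 lists the median was positive in all 8 omissions. The sensory neuron markers also summed highest in replicate 1 of axonal shPum2 (31640 CPM), and their part in these medians was not tested.

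Kinesins had 7 of 14 positive shifts (median 0.05, range -0.14 to 0.62), and dynein and dynactin genes 18 of 27 (median 0.14, range -0.25 to 0.61). Single shifts ran from -6.01 to 2.35 in kinesins and from -5.63 to 7.67 in dynein and dynactin genes. Klc1, a kinesin light chain, read 1149 and 1475 CPM in axons under shControl and 1869.5 and 2161 CPM under shPum2 (shift 0.67, SE 0.51). For Dctn1, the largest dynactin subunit, the values were 96.4 and 70.0 CPM and 141 and 119 CPM in that order (shift 0.68, SE 0.49). Actin, thymosin and growth cone genes had 20 of 29 positive shifts (median 0.27, range -0.23 to 0.63), and the lowest value came without replicate 2 of axonal shPum2. Actb, the beta-actin whose mRNA is a classic axonal cargo, had axonal levels of 3142 and 3135 CPM under shControl and 5731 and 4257 CPM under shPum2, with somatic means of 3352 and 3269 CPM. Its ratios did not overlap, and its shift of 0.64 had a standard error of 0.33 (edgeR quasi-likelihood, Benjamini-Hochberg adjusted p = 0.587).

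**Figure D5:**
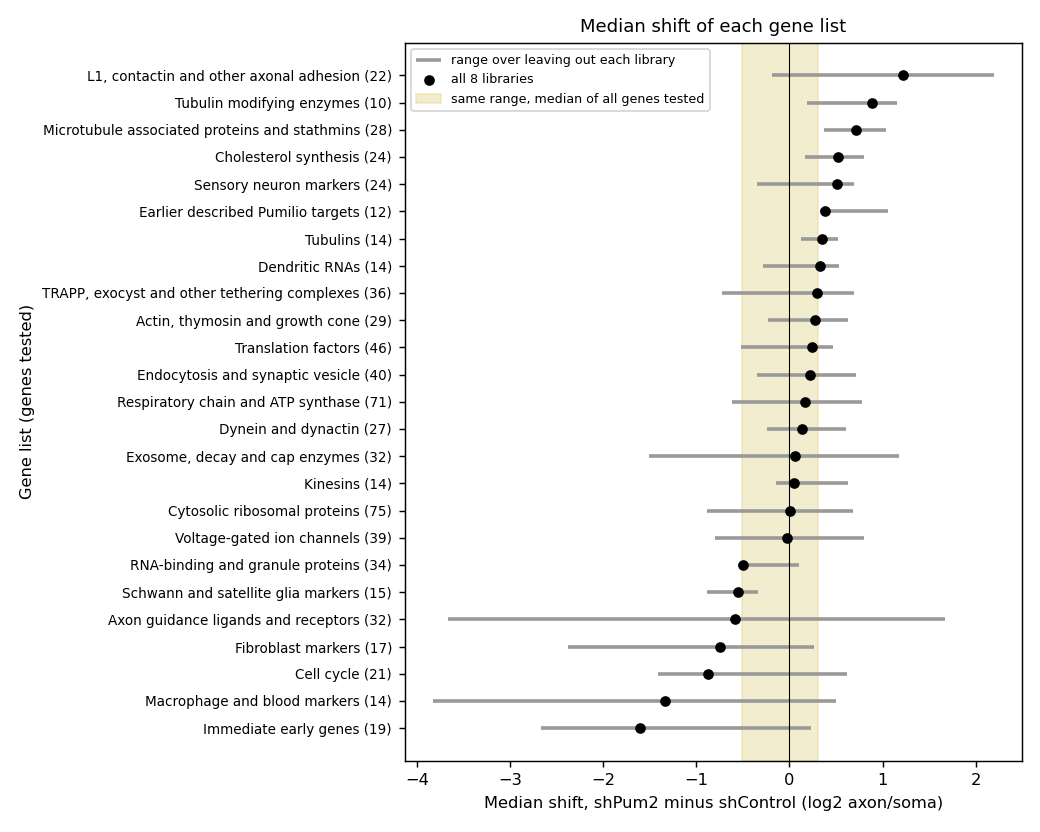
Median shift of each gene list (dots, all 8 libraries) with its range when each library is left out in turn (grey lines); the shaded band is that range for the median of all genes tested. The 3 microtubule lists, cholesterol synthesis and the Pumilio targets stay right of 0, the Schwann and satellite glia list stays left of it, and the other lists cross it.

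Adhesion genes of the L1 and contactin type had 14 of 22 positive shifts and a median of 1.22 (range -0.19 to 2.20, the lowest without replicate 1 of axonal shPum2). That library carried several of the values. Cntn1, a contactin of the axon surface, read 1.45 and 1.77 CPM in axons under shControl and 34.9 and 0.744 CPM under shPum2, and Nectin1, another adhesion molecule, 0.599 and 0.591 CPM and 21.0 and 0.992 CPM. L1cam was high in both shPum2 libraries. Guidance ligands and receptors had 14 of 32 positive shifts (median -0.59), with a range over omissions from -3.67 to 1.67. Their receptor tyrosine kinase Epha2 had axonal levels of 0.257 and 0.222 CPM under shControl and 29.4 and 90.4 CPM under shPum2, a shift of 7.22 with a standard error of 1.67. Voltage-gated channels had 18 of 39 positive shifts, and their median of -0.02 (range -0.80 to 0.80) was positive with total-count scaling. Scn3b, a sodium channel beta subunit, read 2.65 and 0.813 CPM in axons under shControl and 43.7 and 11.8 CPM under shPum2, with somatic means of 284 and 248 CPM (shift 3.96, SE 1.05). Sensory neuron markers themselves had 15 of 24 positive shifts (median 0.52, range -0.35 to 0.69, the lowest without replicate 1 of axonal shPum2). Prph, the peripherin filament protein, had axonal levels of 1045 and 1240.5 CPM under shControl and 1822 and 1879 CPM under shPum2 (shift 0.87, SE 0.44). Dendritic RNAs had 8 of 14 positive shifts (median 0.32, range -0.29 to 0.53).

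Trafficking lists contained shifts of opposite sign. Tethering complexes had 20 of 36 positive shifts (median 0.30, range -0.72 to 0.70). Among genes of the TRAPP tethering complexes, Trappc8 read 28.7 and 23.9 CPM in axons under shControl and 0.172 and 0.186 CPM under shPum2. Its somatic means were 92.4 and 95.3 CPM (shift -7.24, SE 1.01). For Trappc10, another TRAPP gene, axonal levels were 0.770 and 0.443 CPM under shControl and 15.2 and 3.53 CPM under shPum2. Its shift of 3.63 (SE 1.05) was opposite in sign to that of Trappc8. Vps39, of the tether for late endosomes and lysosomes, had a shift of -6.09, and Vps52, of a tether for endosome-to-Golgi vesicles, one of 2.48. Endocytosis and synaptic vesicle genes had 24 of 40 positive shifts (median 0.22, range -0.35 to 0.71). Stx1a, a syntaxin of vesicle fusion, had axonal levels of 18.1 and 1.63 CPM under shControl and 111 and 98.6 CPM under shPum2 (shift 3.46, SE 1.39), opposite in sign to Dnm1.

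RNA metabolism was divided as well. Exosome, decay and cap enzymes had 16 of 32 positive shifts (median 0.05, range -1.51 to 1.18), and 7 higher and 10 lower ratios that did not overlap (53.1% of the 32, against 34.5% of all genes tested). Rnmt, which methylates the mRNA cap, read 16.7 and 49.8 CPM in axons under shControl and 0.258 and 0.124 CPM under shPum2, with somatic means of 31.8 and 31.6 CPM (shift -7.52, SE 1.31). For Rngtt, the enzyme that adds the cap, axonal levels were 28.1 and 6.80 CPM under shControl and 0.172 and 0.186 CPM under shPum2, and somatic means were 37.1 and 39.8 CPM (shift -6.72). RNA-binding and granule proteins had 12 of 34 positive shifts (median -0.50, range -0.55 to 0.10, the highest without replicate 2 of axonal shControl). Earlier described Pumilio targets had 9 of 12 positive shifts and a median of 0.38, with a range of 0.33 to 1.06 over omissions. Ratios that did not overlap were higher in 5 of the 12 (41.7%) and lower in 0, against 16.6% higher and 17.9% lower over all genes tested. Mff, a receptor for mitochondrial fission, had axonal levels of 52.0 and 79.9 CPM under shControl and 160.4 and 110.0 CPM under shPum2, with somatic means of 221 and 216 CPM. Its shift was 0.99 with a standard error of 0.57 (edgeR quasi-likelihood, Benjamini-Hochberg adjusted p = 0.639). Scn8a, a sodium channel, read 5.56 and 0.296 CPM in axons under shControl and 11.2 and 5.58 CPM under shPum2 (shift 1.52, SE 1.81).

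Cytosolic ribosomal protein genes had 39 of 75 positive shifts, with values from -0.43 to 0.84 and a median of 0.01 that was -0.04 with total-count scaling. Their median ran from -0.89 to 0.68 over omissions. The ratios of the hairpins overlapped in all 75, whereas 34.5% of all genes tested had ratios that did not overlap. The list's median log2 ratio was 3.316 and 3.385 under shControl against 2.498 and 3.962 under shPum2. For the list as a whole the 2 shPum2 libraries thus lay on either side of shControl. Respiratory chain and ATP synthase genes had 60 of 71 positive shifts and a median of 0.17, with 5 higher and 0 lower among ratios that did not overlap (7.04%, against 34.5% of all genes tested). Values ran from -0.98 to 2.59, and the median from -0.62 to 0.78 over omissions, the lowest without replicate 2 of axonal shPum2. Atp5f1b, the catalytic subunit of ATP synthase, had axonal levels of 685 and 675 CPM under shControl and 1099 and 1299.9 CPM under shPum2, a shift of 0.85 with a standard error of 0.50. For Uqcrc2, a core subunit of complex III, the values were 40.1 and 23.1 CPM and 97.1 and 76.5 CPM in that order (shift 1.41, SE 0.69). Translation factors had 31 of 46 positive shifts (median 0.24, range -0.52 to 0.46, the lowest without replicate 2 of axonal shPum2). Eif4a2, a helicase of translation initiation, read 15.4 and 36.1 CPM in axons under shControl and 54.1 and 87.8 CPM under shPum2. Eif3e, a subunit of initiation factor 3, had 48.0 and 188 CPM and 60.0 and 40.5 CPM, so its replicates under shControl lay further apart than its shPum2 libraries did.

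Cholesterol synthesis genes had 17 of 24 positive shifts, a median of 0.52 and a range of 0.17 to 0.80 over omissions, with ratios that did not overlap higher in 8 and lower in 2 (41.7% in all, against 34.5% of all genes tested). Sqle, the squalene epoxidase, read 15.3 and 3.47 CPM in axons under shControl and 165 and 18.3 CPM under shPum2 (shift 2.83, SE 1.35). For Dhcr7, the final reductase of the pathway, the values were 17.5 and 1.40 CPM and 60.3 and 50.3 CPM in that order (shift 2.41, SE 1.43). Idi1, an isomerase early in the pathway, had 78.8 and 145 CPM and 87.0 and 43.6 CPM (shift -0.99, SE 0.60), opposite in sign to Sqle and Dhcr7.

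Lists of genes from cells other than neurons had negative medians, and there the somatic part of the shift was larger. Macrophage and blood markers had 2 of 14 positive shifts (median -1.34, range -3.83 to 0.50), and Schwann and satellite glia markers 3 of 15 (median -0.55, range -0.88 to -0.34). Fibroblast markers had 6 of 17 (median -0.75) and cell cycle genes 7 of 21 (median -0.87, range -1.42 to 0.62). The median somatic log2 difference was 0.76, 0.54, 0.74 and 0.81 in these lists, against 0.08 as the median size over genes tested in both compartments. Replicate 1 of somatic shPum2 had the highest somatic sum of all 4 lists, for example 324 CPM of macrophage markers against 80.9 CPM in replicate 2 and 400.1 CPM of cell cycle genes against 152 CPM. Without replicate 1 of axonal shPum2 the fibroblast median was -2.38, and without replicate 1 of somatic shPum2, the library with 11350 CPM of fibroblast markers, it was 0.26. Lyz2, the lysozyme of macrophages, read 816 and 2190.4 CPM in axons under shControl and 2061 and 172 CPM under shPum2. For C1qb, a complement chain made by macrophages, the values were 198 and 114 CPM and 170.2 and 20.6 CPM in that order. Replicate 2 of axonal shPum2 was the lowest axonal library for both genes, as it was for the summed macrophage markers. Immediate early genes, which neurons and other cells induce on stimulation, had 5 of 19 positive shifts and a median of -1.60 (range -2.67 to 0.24, the highest without replicate 2 of axonal shControl). Nr4a2, a nuclear receptor of this class, had axonal levels of 15.2 and 4.29 CPM under shControl and 0.687 and 0.434 CPM under shPum2 (shift -4.61, SE 1.52).

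Among 1086 genes whose main transcript was shorter than 1000 bases the median absolute shift was 0.47, and it was 1.03 at 1000 to 2000 bases, 1.42 at 2000 to 4000 bases, 1.52 at 4000 to 8000 bases and 1.25 above. Short transcripts were also the more abundant in axons, with a median of 34.9 CPM below 1000 bases and 5.55 CPM at 4000 to 8000 bases. The medians of the signed shift lay between -0.03 and 0.06 up to 8000 bases. The 198 genes with a transcript of 8000 bases or more had a median of -0.31, with ratios that did not overlap higher in 19 (9.60%, against 16.6% of all genes tested) and lower in 46 (23.2%, against 17.9%), together 32.8% against 34.5%. Without replicate 2 of axonal shControl the median of these long transcripts was 0.23 and that of all genes 0.19. It was -1.09 without replicate 1 of axonal shPum2, where that of all genes was -0.51.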

How the data were processed

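The deposited file of each library gives kallisto's estimated counts and TPM for 18321 RefSeq transcripts with their lengths in bases, per the file headers and, for the tool, the submitters' processing notes. Those notes also name DESeq2 and the build Rnor_6.0, and tool versions are not given in the sources used here. In 2 tables deposited by the authors, 1 per compartment, each gene has the mean of its normalised signal, the log2 fold change between the hairpins with a standard error, a test statistic (a score) and p-values, per the file headers. Here the expected counts were summed to 17379 genes through a RefSeq table (assembly GRCr8, for names only; 94.8% of transcripts matched) and rounded. kallisto split reads shared between near-identical genes, so values of multigene families are uncertain.

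The shift was tested over all 12337 genes with edgeR 4.0.16 (quasi-likelihood, TMM, filterByExpr, Benjamini-Hochberg, threshold 0.05) in R 4.3.3, in a fit of 4 group means. Separate fits of the 4 axonal (8517 genes) and 4 somatic libraries (12346 genes) gave the parts of the shift and the variation between replicates. Ratios used log2 CPM with TMM and a prior count of 2, and printed CPM are over total counts. Alternatives were DESeq2 1.42.0, limma 3.58.1 voom (also with a spread per compartment), other size factors, no filter, the somatically detected genes alone, a 2-fold limit, 2 kinds of replicate block, deposited TPM with 0.5 added, and each library left out. The test was checked on simulated data, where few of the genes given a change passed the threshold. An absence of calls therefore does not show that ratios were unchanged. Named genes were Pum2, 12 per direction by smallest p among those with non-overlapping ratios and a mean log2 CPM of at least 4, the 10 most abundant in axons, and up to 4 per list by smallest p. Of these, list members with over 3 axonal counts per hairpin are given, and 1 gene is not reported here. Members, the 25 lists and rules were chosen with earlier results of these data known.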

Additional observations from a re-analysis of the deposited data

How the results depend on the processing

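The number of genes past the threshold was 0 in edgeR with RLE size factors, total-count scaling, no filter, the somatically detected genes tested alone, a 2-fold limit, and either replicate block, and in limma voom with and without a spread per compartment. DESeq2 called 609, 354 of them with a higher ratio. Leaving out each library gave 0 to 713 calls, the 713 without replicate 1 of axonal shControl (491 higher, smallest adjusted p 0.0395, edgeR quasi-likelihood). Of the DESeq2 calls and these 713, 228 genes were shared, 37.4% of the former and 32.0% of the latter. Where a library is left out, the lone library of its group is assumed to vary like the others. Genes at an unadjusted p below 0.05 numbered 964, against 1947 with DESeq2, 563 with limma voom, 562 with a spread per compartment, and 332 to 2468 over the libraries left out. They numbered 615 with the replicate number as a block and 259 with a block for each somatic and axonal pair of the same hairpin and number. The labels do not say that numbers pair libraries: over 4514 genes, deviations of same-numbered libraries correlated at 0.773 between the somatic groups and at 0.014 to 0.118 for other pairs of groups.

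The count of non-overlapping ratios was 3959 and lay between 3397 (same-numbered somatic library, a block in the ratio) and 4440 (deposited TPM). The shift kept its sign in all 17 alternatives for each of the 24 genes named for it. These were chosen on the same counts for ratios that did not overlap, so a kept sign largely follows from the choice. Of 79 named genes followed across the alternatives, 8 had a shift of opposite sign under some of them, and the cause was not tested. Tmsb4x was at -0.0224 with limma voom, -0.0194 with a spread per compartment, -0.000201 with the replicate block and -0.0179 with the block within hairpin. Tp53inp2 was at 0.0180 with RLE factors or DESeq2, 0.0619 with total counts, 0.0860 with limma voom, 0.0821 with a spread per compartment and 0.0790 with the block within hairpin. Stau2 was at 0.129 with limma voom, 0.0874 with a spread per compartment and 0.0700 with the block within hairpin. Over libraries left out the ranges were -0.76 to 0.14 for Ftl1, -0.66 to 0.63 for Tmsb4x, -0.90 to 0.53 for Tmsb10, -0.46 to 0.63 for Tp53inp2, -0.72 to 0.19 for Rps2, -0.68 to 0.85 for Stau2, -0.62 to 0.36 for Ybx1 and -0.65 to 4.01 for Cntn1.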

Other observations

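Some of the 95 genes that were present in both axonal libraries of 1 hairpin and below 1 CPM in both of the other have roles not described above; they were chosen after their values were seen. Ythdf3, a reader of N6-methyladenosine in mRNA, had 9 counts in all in axonal shControl and 1150 in axonal shPum2 libraries. For Pphln1, a nuclear protein of heterochromatin silencing, axonal levels were 0.856 and 0.739 CPM under shControl and 31.0 and 36.1 CPM under shPum2, with somatic means of 50.2 and 46.7 CPM. In the other direction, Slc8a1, a sodium-calcium exchanger of the plasma membrane, had 1224 counts in all in axonal shControl and 6 in axonal shPum2 libraries, with somatic means of 89.4 and 95.9 CPM. Ece1, which processes endothelin precursors, read 11.1 and 49.2 CPM in axons under shControl and 0.859 and 0.062 CPM under shPum2. None of the shifts of these 4 genes passed the threshold.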
